A study of Mus musculus with 6 samples.

Results

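The genes described here are Ly6a, Ly6c1, Ly6d and Ly6e of the Ly6 family, Ms4a4b, Ms4a4c and Ms4a6b of the Ms4a family, the Schlafen genes Slfn1 and Slfn2, and Cd52. They were chosen by the gene symbol that the array annotation gives to a probe. Of the 10 genes, 9 had a probe, with 14 probes among the 45281 on the array, and 19057 genes were named in all. Ly6a was not analysed here. The signals came from Illumina mouse bead arrays, hybridised with RNA of thymic lymphocytes taken from C57/bl6-129sv mice at 8 to 12 weeks of age. The 3 KAP1 KO animals carried CD4-Cre together with the Kap1flox allele, so that KAP1, the corepressor encoded by Trim28, is deleted in the T lineage. The 3 littermate controls are given as wt/Kap1flox in the series description and as WT in the sample labels, and neither text says whether any of them carried CD4-Cre. The CD4 promoter elements that drive this Cre become active in double-positive thymocytes, so earlier thymocytes and cells of other lineages keep KAP1. Each array stands for 1 mouse, no sort is named, and the signal of a bulk preparation cannot tell more cells of a type from more RNA per cell.

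Ly6 proteins are small, and most are anchored to the outer membrane by a lipid. Ly6c1 and Ly6a are higher on mature T cells and respond to interferons, whereas Ly6e, also called thymic shared antigen, is abundant on immature thymocytes. Ms4a proteins cross the membrane several times, and Ms4a4b is known from mature T cells, where it acts on signalling and proliferation. Slfn1 and Slfn2 belong to a family linked to the quiescence of lymphocytes, and loss of Slfn2 in mice leaves T cells unable to stay quiescent. Cd52 encodes a short glycoprotein carried at high density by mature lymphocytes.

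The targeted gene, Trim28, had a lower signal on all 3 knockout arrays. Its probe showed log2 signals of 10.83, 11.01 and 10.23 on KAP1 KO replicates 1, 2 and 3, against 12.39, 12.25 and 12.59 on control replicates 4, 5 and 6. The log2 difference was -1.72 ± 0.26 (SE, n = 3 per group), with a limma adjusted p of 0.23. No source used here places the probe relative to the floxed exons, so it is an incomplete check of the labels. Before normalization the mean signal per array was 427.1 to 678.5 in the knockout and 340.1 to 578.8 in the controls, and 13973 to 15182 probes were detected per array. The thymocyte defining markers were present, with 12 of 13 genes that had a probe entering the test and 7 of those 12 higher in the knockout. The exception was Cd8a, a coreceptor of most thymocytes, whose probes were not detected on any array.

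Among the members, 10 probes of 7 genes were detected on all 6 arrays, and 4 probes of Ms4a4b and Ms4a4c were detected on 0. A probe counted as detected at a detection p under 0.01, and probes detected on at least 3 of the 6 arrays were tested, 14651 in all. Of the 10 tested member probes, 9 had a higher mean in the knockout and 1 a lower one, against 48.9% of all tested probes with a higher mean. None passed the threshold of 0.05 on the adjusted p, where the share called among all tested probes was 0.0273% (limma with Benjamini-Hochberg adjustment over all tested probes). At an unadjusted p under 0.05 there were 2 member probes, Ly6c1 and Slfn2, both higher, against 3.54% of all tested probes in either direction and 2.25% higher. These were also the 2 member probes for which every knockout array lay above every control array, which held for 4.48% of all tested probes, while 7.64% had groups apart in either direction. An exact permutation test of either gene gave p = 0.1, the smallest value that 3 arrays against 3 allow in a two-sided test.

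**Figure D1:**
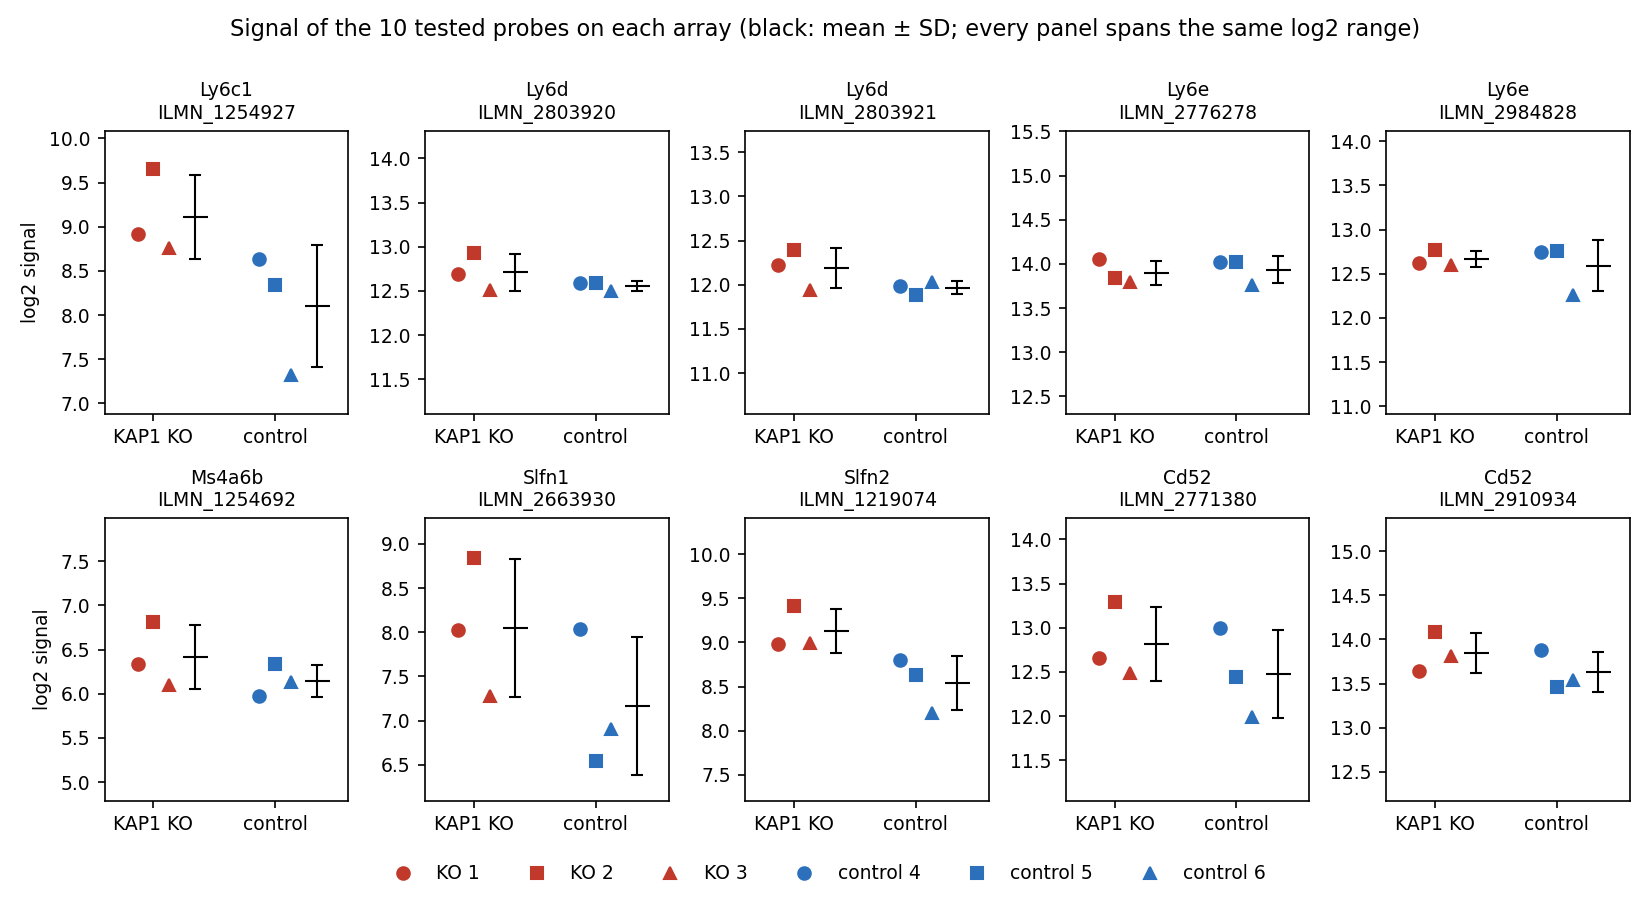
Log2 signal (vertical axis) of the 10 tested member probes on each of the 3 KAP1 KO arrays and the 3 control arrays, with black bars for mean ± SD. All panels span the same number of log2 units. The groups are apart for Ly6c1 and Slfn2 and overlap for the other 8 probes, and replicate 2 is the highest knockout array for 9 of the 10. This last count was not made over all tested probes.

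Ly6c1 had the largest fitted difference of the tested members. This gene encodes one of the near-identical Ly-6C antigens of mature T cells and monocytes, and its probe, ILMN_1254927, is not shown to distinguish Ly6c1 from its closest relative. Its log2 signal was 8.91, 9.65 and 8.76 on KAP1 KO replicates 1, 2 and 3, against 8.63, 8.34 and 7.32 on control replicates 4, 5 and 6. The lowest knockout array and the highest control array were thus close to each other, and the 2 extreme arrays, knockout replicate 2 and control replicate 6, set much of the distance between the means. Over 3 arrays per group the mean ± SD was 9.11 ± 0.48 for the knockout and 8.10 ± 0.69 for the controls. The log2 difference was 1.01 (SE 0.38, 95% interval 0.14 to 1.88), a 2.01-fold higher signal, with a limma adjusted p of 0.998. Without control replicate 6 the log2 difference was 0.62, and without knockout replicate 2 it was 0.74.

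Ly6d, which marks early lymphoid progenitors with B lineage potential and is also carried by many thymocytes, differed little between genotypes. Probe ILMN_2803920 had log2 signals of 12.70, 12.92 and 12.51 in the knockout, against 12.59, 12.59 and 12.50 in the controls. Probe ILMN_2803921 had 12.22, 12.39 and 11.95 in the knockout, against 11.99, 11.89 and 12.03 in the controls. In both probes the 3 control arrays lay close together, within 0.09 and 0.14 log2 units, while the knockout arrays spread over 0.42 and 0.45, and the groups overlapped. The log2 differences were 0.15 ± 0.21 and 0.22 ± 0.21 (SE, n = 3 per group). They were 0.045 and 0.12 without knockout replicate 2, and 0.25 and 0.34 without knockout replicate 3.

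Ly6e was the member whose signal differed least between genotypes. Probe ILMN_2776278 had log2 signals of 14.05, 13.85 and 13.80 in the knockout, against 14.02, 14.03 and 13.76 in the controls. Probe ILMN_2984828 had 12.62, 12.77 and 12.60 in the knockout, against 12.75, 12.76 and 12.26 in the controls. The groups overlapped in both, and the lowest array was control replicate 6 in both. The log2 differences were -0.04 ± 0.20 and 0.08 ± 0.22 (SE), with 95% intervals of -0.50 to 0.43 and -0.43 to 0.58. A difference of 1 log2 unit, the size fitted for Ly6c1, lies outside both intervals.

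Slfn2 had the smaller spread of the Schlafen pair. Its probe, ILMN_1219074, had log2 signals of 8.98, 9.41 and 9.0 in the knockout, against 8.80, 8.63 and 8.20 in the controls, so that all 3 knockout arrays lay above all 3 control arrays. Mean ± SD was 9.13 ± 0.24 for the knockout and 8.54 ± 0.31 for the controls, with 3 arrays each. The log2 difference was 0.59 (SE 0.24, 95% interval 0.03 to 1.14), a 1.5-fold higher signal, with a limma adjusted p of 0.998. Slfn1, its neighbour on chromosome 11, varied far more from mouse to mouse. The Slfn1 probe, ILMN_2663930, had log2 signals of 8.03, 8.84 and 7.28 in the knockout, against 8.04, 6.55 and 6.91 in the controls. Arrays of one group differed by 1.56 log2 units in the knockout and by 1.49 in the controls, and the groups overlapped. The log2 difference was 0.89 (SE 0.48, 95% interval -0.20 to 1.97, limma adjusted p = 0.998), with values of 0.49 when knockout replicate 2 was left out and 0.58 when control replicate 5 was.

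Cd52 was higher on knockout replicates 2 and 3 than on control replicates 5 and 6, but not on knockout replicate 1 against control replicate 4. Probe ILMN_2771380 had log2 signals of 12.66, 13.29 and 12.49 in the knockout, against 12.99, 12.44 and 12.00 in the controls. Probe ILMN_2910934 had 13.65, 14.09 and 13.81 in the knockout, against 13.88, 13.46 and 13.54 in the controls. The groups overlapped in both, with control replicate 4 above knockout replicates 1 and 3. The log2 differences were 0.34 ± 0.32 and 0.22 ± 0.23 (SE, n = 3 per group), and the profiles of the 2 probes over the 6 arrays had a Pearson coefficient of 0.85. With 1 array left out, ILMN_2771380 ranged between 0.097 without control replicate 6 and 0.60 without control replicate 4. ILMN_2910934 ranged between 0.099 without knockout replicate 2 and 0.35 without control replicate 4.

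Ms4a6b, an Ms4a gene of T cells, was the only one of the 3 Ms4a members with a detected probe. Probe ILMN_1254692 had log2 signals of 6.33, 6.81 and 6.10 in the knockout, against 5.97, 6.34 and 6.13 in the controls. The groups overlapped, with knockout replicate 2 the highest array. The log2 difference was 0.27 ± 0.25 (SE, n = 3 per group; 95% interval -0.29 to 0.83), and it was 0.07 without knockout replicate 2.

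For Ms4a4b and Ms4a4c no difference could be measured. The 3 Ms4a4b probes, designed on the records NM_021718, AK080934 and AK088780, had detection p-values from 0.0363 to 0.970 over all arrays. Their signals before normalization lay between 93.3 and 148.2, beside a median over all probes of 107.3 to 134.6 per array. The single Ms4a4c probe had detection p-values between 0.408 and 0.949. These 4 probes were not well above background on any array of either genotype, so no fold is given. A probe below background is not evidence that the transcript was missing: the probes of Cd8a and of the chemokine receptor gene Ccr9, which thymocytes are known to carry, were likewise detected on 0 arrays.

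**Figure D2:**
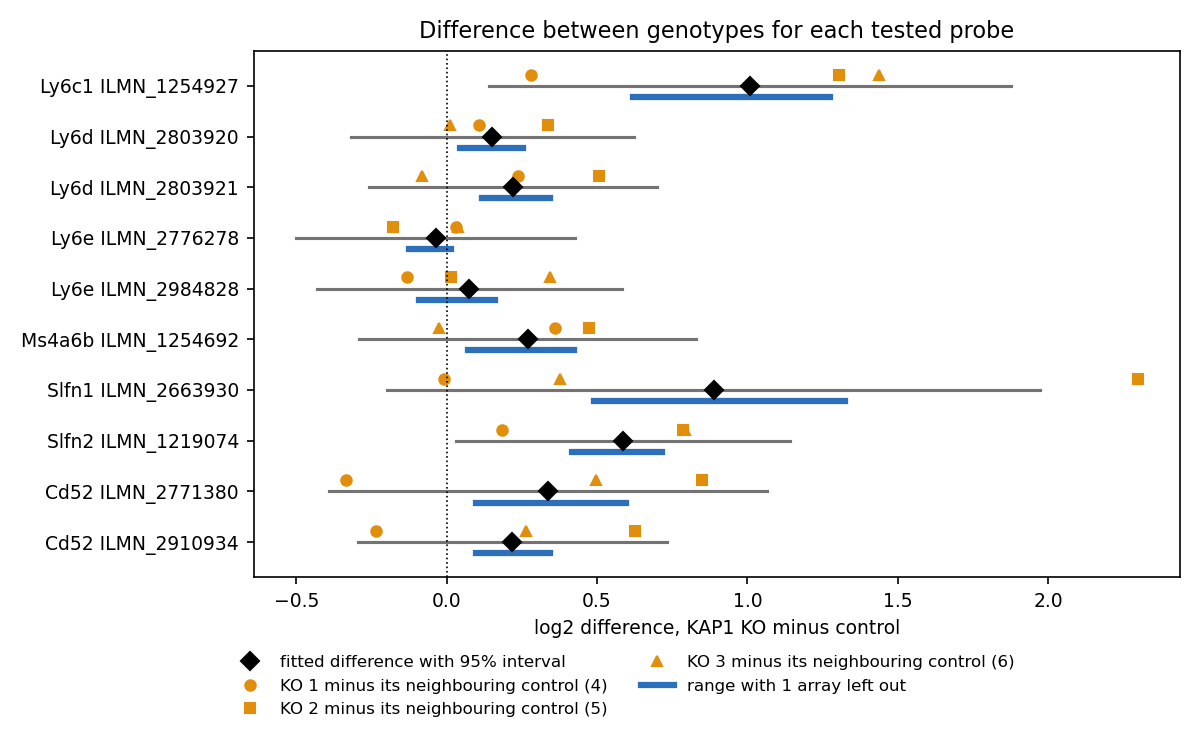
Log2 difference between KAP1 KO and control (horizontal axis) for each tested member probe. Black diamonds with grey lines are the fitted differences with 95% intervals, orange points are single knockout arrays minus the control with the neighbouring number in the file header, and blue bars span the fits with 1 array left out. The intervals of Ly6c1 and Slfn2 lie above 0 before adjustment, and those of the other 8 probes include 0.

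The file header carries a second number for each array, and these numbers put each knockout next to a control. No source used here says what they stand for. They also fall into 2 ranges, with knockout replicate 3 and control replicate 6 in the second. Knockout replicate 3 was the lowest knockout array for 8 of the 10 tested member probes, and control replicate 6 the lowest control array for 6. Such counts were not made over all tested probes, so they are not shown to be particular to the members. Before normalization these arrays also had the lowest mean signal of their groups, 427.1 and 340.1. They did not have the fewest detected probes. Knockout replicate 3 had the most of all arrays, 15182, and control replicate 6 had 14419, against 13973 on control replicate 4. In the pairs of neighbouring numbers, Ly6c1 was higher in the knockout by 0.28, 1.3 and 1.44 log2 units for knockout replicates 1, 2 and 3. Slfn2 was higher by 0.18, 0.79 and 0.79. Slfn1 differed by -0.01, 2.30 and 0.38, and the Cd52 probe ILMN_2910934 by -0.23, 0.63 and 0.26. The pair of knockout replicate 1 and control replicate 4 thus gave the lowest difference of the 3 pairs in each of these 4 genes. Over the tested member probes, 6 of 10 were higher in the knockout in the pair of replicate 1, 9 in that of replicate 2 and 8 in that of replicate 3. Shares over all tested probes were not computed for the single pairs, and Ly6d, Ly6e and Cd52 each count with 2 probes. In all 3 pairs together 3 of 10 were higher, the Ly6c1 and Slfn2 probes and 1 Ly6d probe, against 12.9% of all tested probes. With the pairs as a block, 2 probes of all those tested passed the threshold in place of 4, none of them a member, and Ly6c1 and Slfn2 had limma adjusted p-values of 0.774 and 0.858.

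The mean of the tested members differed from array to array within each genotype. With each gene taken by its probe of highest mean signal and set to its mean over the 6 arrays, the mean of the 7 genes was 0.15, 0.57 and -0.05 log2 units on KAP1 KO replicates 1, 2 and 3, against 0.05, -0.24 and -0.47 on control replicates 4, 5 and 6. Knockout replicate 2 stood highest and control replicate 6 lowest, and knockout replicate 3 lay below control replicate 4. Its mean ± SD over 3 arrays was 0.22 ± 0.31 for the knockout and -0.22 ± 0.26 for the controls, which makes a difference of 0.44. Without knockout replicate 2 this mean difference was 0.27. The median difference of the 7 genes was 0.27, beside -0.01 over the 8200 tested genes.

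Ly6c1 and Slfn2, which lie on chromosomes 15 and 11, had the most similar profiles, with a Pearson coefficient of 0.99 over the 6 arrays. Ly6d and Ms4a6b reached 0.90, Slfn1 and Cd52 0.87, and the Schlafen pair itself 0.79. The profile of Ms4a6b was less like those of Slfn1 and Cd52, with coefficients of 0.52 and 0.40, and reached 0.62 with the mean of the other members. Ly6e had coefficients between -0.20 and 0.26 with the other 6 genes. These coefficients describe 6 arrays of 2 genotypes, which share the preparation of each mouse.

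**Figure D3:**
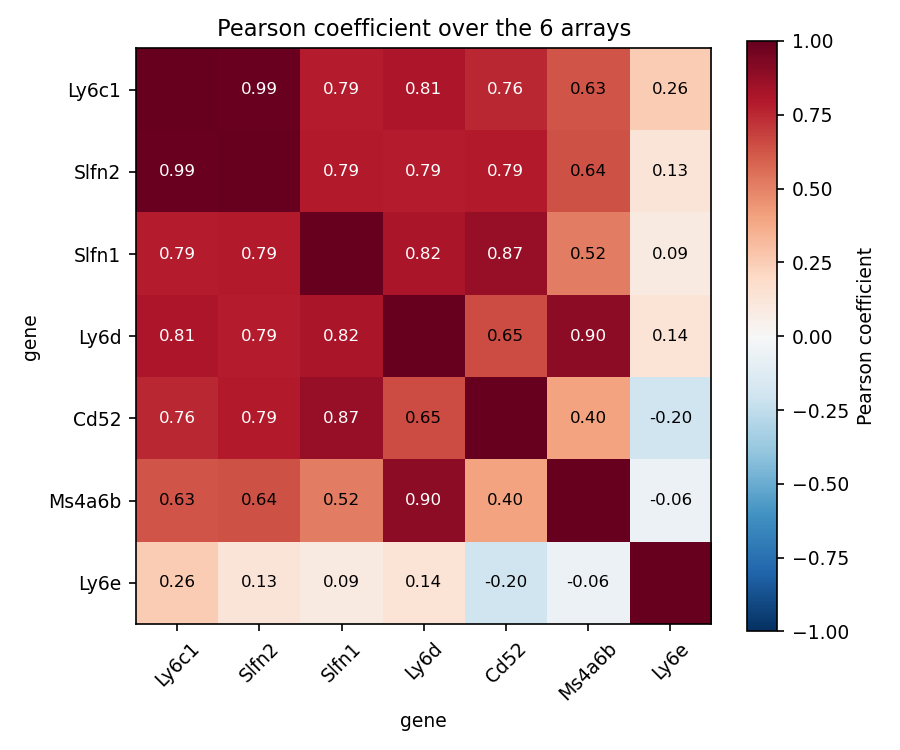
Pearson coefficient over the 6 arrays between the log2 signals of each pair of tested member genes (both axes list the genes, colour and number give the coefficient). Ly6c1 and Slfn2 reach 0.99, and the row of Ly6e stays between -0.20 and 0.26.

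Promoter windows of 250 bases before to 50 bases after an annotated start were held in the RefSeq table of GRCm38.p6 for 6 of the 10 members. The windows of Slfn1, Slfn2 and Ms4a6b are shown because all 3 hold the letters ACTTCCTG, which fit the core of ETS family sites and are given in capitals. The first window of Ly6c1 is shown because its profile was the closest to that of Slfn2.
Slfn1, chr11:83116570-83116869, plus strand: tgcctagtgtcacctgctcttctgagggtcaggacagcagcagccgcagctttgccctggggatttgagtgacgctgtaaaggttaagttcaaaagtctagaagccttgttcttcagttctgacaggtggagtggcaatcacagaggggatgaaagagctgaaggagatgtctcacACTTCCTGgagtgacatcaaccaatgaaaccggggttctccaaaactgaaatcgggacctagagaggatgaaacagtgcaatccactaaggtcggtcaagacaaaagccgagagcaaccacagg
Slfn2, chr11:83064862-83065161, plus strand: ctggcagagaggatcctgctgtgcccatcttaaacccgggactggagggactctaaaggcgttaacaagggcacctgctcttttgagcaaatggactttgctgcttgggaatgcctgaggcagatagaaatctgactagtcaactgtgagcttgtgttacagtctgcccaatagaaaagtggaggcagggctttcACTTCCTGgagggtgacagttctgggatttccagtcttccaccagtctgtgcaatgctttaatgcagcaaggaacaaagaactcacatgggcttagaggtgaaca
Ms4a6b, chr19:11518309-11518608, plus strand: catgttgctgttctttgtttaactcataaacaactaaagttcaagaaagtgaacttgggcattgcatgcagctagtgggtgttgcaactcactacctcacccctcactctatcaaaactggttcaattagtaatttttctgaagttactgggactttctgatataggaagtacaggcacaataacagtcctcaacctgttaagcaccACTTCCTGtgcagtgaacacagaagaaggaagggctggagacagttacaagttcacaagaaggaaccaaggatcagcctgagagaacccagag
Ly6c1, chr15:75048788-75049087, minus strand: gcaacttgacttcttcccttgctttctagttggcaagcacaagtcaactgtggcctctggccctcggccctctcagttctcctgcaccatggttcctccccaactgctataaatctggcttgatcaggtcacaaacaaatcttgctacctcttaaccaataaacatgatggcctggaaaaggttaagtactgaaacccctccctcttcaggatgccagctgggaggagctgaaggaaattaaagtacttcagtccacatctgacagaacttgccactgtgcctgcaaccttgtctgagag
The match begins at position -74 in Slfn1, -55 in Slfn2 and -43 in Ms4a6b relative to the annotated start, in the same orientation in all 3. These letters were searched on both strands after the sequences had been seen, and they occur in 3.33% of the 32851 promoter windows of the table. Slfn1 and Slfn2 are neighbouring genes of the same family, and their windows share bases on both sides of the match. Their matches are thus not shown to be independent occurrences. The windows of Ly6c1, Ms4a4b and Ms4a4c do not hold them. A core of the interferon-stimulated response element occurs in 3.44% of all windows and in 0 of the 6 members, and the letters TTCNNNGAA of a gamma-activated site occur in 8.3% and in 0 of the 6, on either strand. Such matches describe letters in these windows and are no measure of binding.

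Relatives of the members were mostly below detection. All 7 further Schlafen genes with a probe, among them Slfn3, Slfn4, Slfn5, Slfn8 and Slfn9, were detected on 0 arrays. Of 13 further Ms4a genes with a probe, 10 were detected on 0 arrays and 1 was tested, Ms4a6d, a gene of macrophages. Its probe ILMN_1241695 had log2 signals of 6.69, 6.88 and 5.50 in the knockout, against 6.31, 5.85 and 5.05 in the controls. The log2 difference was 0.62 ± 0.43 (SE, limma adjusted p = 0.998). The other Ms4a6d probe was detected on 0 arrays. Of 21 further genes of the Ly6 superfamily with a probe, 4 were tested and 3 of these were higher, with a median log2 difference of 0.02 and a mean of -0.21. Ly6k, known from testis, differed by -0.95 ± 0.41 in probe ILMN_2636229, the opposite direction to Ly6c1, and the groups overlapped. The limma p of this Ly6k probe was 0.0475 unadjusted and 0.998 adjusted. The other Ly6k probe, ILMN_2433785, was detected on 0 arrays, with log2 signals of 4.39 to 4.58. Lypd6b differed by 0.08 ± 0.20 and Lynx1, a modulator of acetylcholine receptors, by 0.03 ± 0.20, with 0.31 ± 0.25 for its other probe (SE, n = 3 per group).

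Other genes of T cell maturation were set beside the members. In this list and those that follow, each gene was counted by its tested probe of highest mean signal. Of 24 tested genes of mature single-positive thymocytes, 18 were higher in the knockout and 6 lower, with a median log2 difference of 0.32. Over the 8200 tested genes 47.9% were higher. None of the 24 passed the adjusted threshold in limma, and 4 had an unadjusted p under 0.05, beside 287 of the 8200. Itgae, which encodes CD103, differed by 1.20 ± 0.34 and Itgb7, its partner chain, by 0.85 ± 0.30 (SE), and Ccr7, the chemokine receptor of mature thymocytes, by 1.14 ± 0.45. Genes of the preceding double-positive stage went both ways, with 7 of 15 higher and a median of -0.06. None of the counted probes had an adjusted or unadjusted p under 0.05 in limma. There the glutathione transferase gene Mgst2 differed by 0.62 ± 0.33, the transcription factor gene Ets2 by -0.46 ± 0.24 and Mns1 by -0.41 ± 0.24.

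Interferon-stimulated genes and cell cycle genes bear on the known roles of Ly6c1 and of the Schlafen genes. Of 28 tested interferon-stimulated genes, 22 were higher in the knockout, with a median log2 difference of 0.23. None of their counted probes had an adjusted or unadjusted p under 0.05 in limma. The counted Usp18 probe differed by 0.45 ± 0.37 (SE). A further Usp18 probe, ILMN_3054914, differed by 1.06 ± 0.36, with every knockout array above every control array. Its limma p was 0.0174 unadjusted and 0.998 adjusted. Ddx58, a sensor of viral RNA, differed by 0.44 ± 0.22, the antiviral gene Rsad2 by 0.71 ± 0.37 and the exonuclease gene Isg20 by 1.02 ± 0.59 (SE, n = 3 per group). Of 30 tested cell cycle genes, 30 were lower, beside 4269 of all 8200, with a median of -0.47. Of their counted probes 4 had an unadjusted but none an adjusted p under 0.05 in limma. For 5 of the 30 every knockout array lay below every control array, beside 278 of the 8200. Foxm1, a transcription factor of the G2 and M phases, differed by -0.72 ± 0.21, E2f2, one of the S phase, by -0.72 ± 0.23, and the checkpoint kinase gene Chek1 by -0.95 ± 0.37. By array the interferon-stimulated genes followed the members in part: their centred mean was -0.14, 0.55 and -0.08 in the knockout, against 0.24, -0.36 and -0.21 in the controls. The cell cycle genes were lowest on knockout replicate 3, at -1.0, with 0.03 and 0.13 on knockout replicates 1 and 2. Both of these lay below control replicates 4 and 5, at 0.40 and 0.39, and close to control replicate 6, at 0.04.

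**Figure D4:**
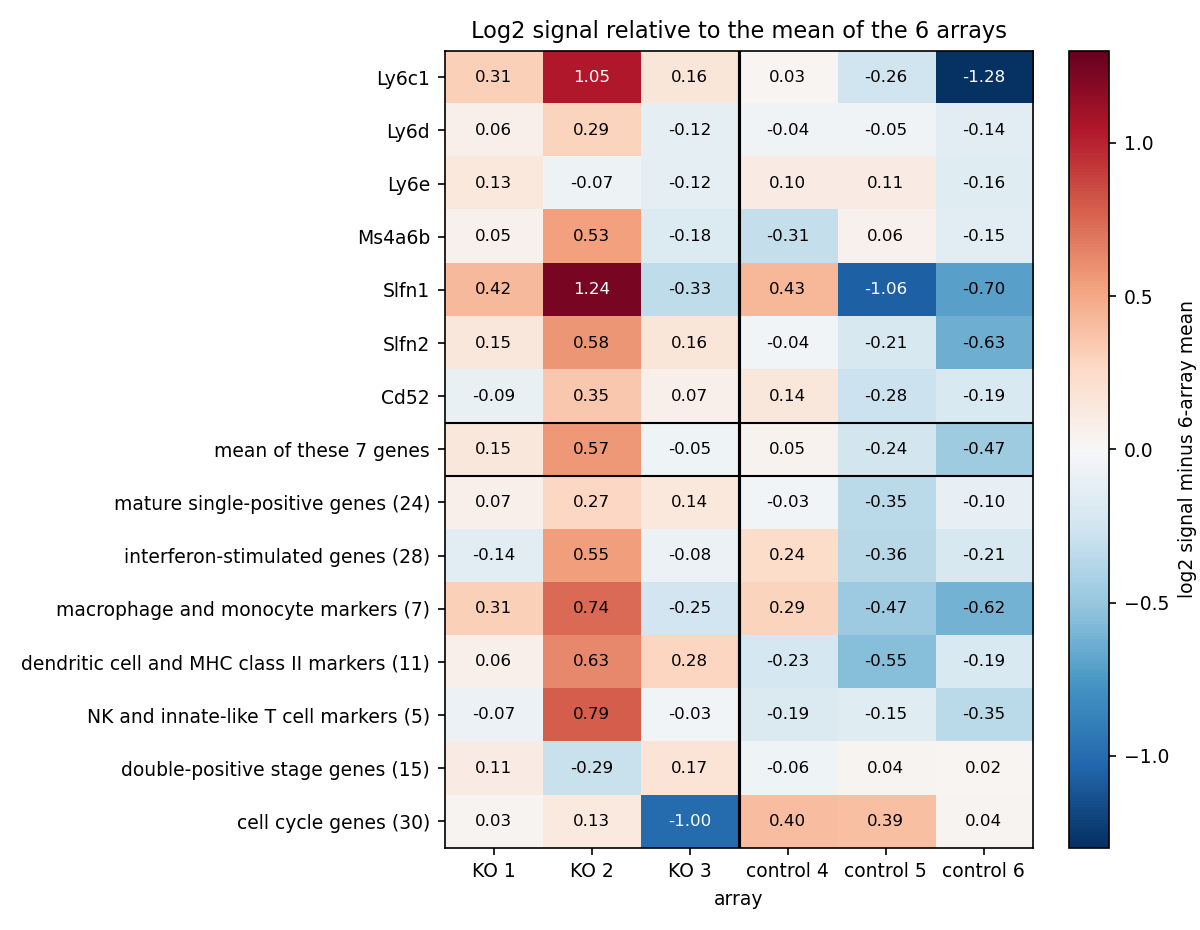
Log2 signal relative to the mean of the 6 arrays (colour and number), by array (columns, KAP1 KO left of control), for the 7 tested member genes, their mean and 7 gene lists (number of genes in brackets). Knockout replicate 2 is high for the members, at 0.57 for their mean, and for the macrophage and NK lists at 0.74 and 0.79.

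Markers of other thymic cells moved with the members on some arrays. The macrophage and monocyte markers had a centred mean of 0.31, 0.74 and -0.25 in the knockout, against 0.29, -0.47 and -0.62 in the controls, the same order of arrays as the member mean. Of 18 such genes with a probe, 7 were tested and 7 were higher, with summed signals of 2230 to 5674 in the knockout and 1967 to 4430 in the controls, and Adgre1, Itgam, Fcgr1, Mertk, Ccr2 and Cd14 were detected on 0 arrays. Of 11 tested dendritic cell and MHC class II markers 10 were higher, with summed signals of 12280 to 19805 in the knockout and 8540 to 9674 in the controls, and Itgax, Flt3, Xcr1, Clec9a, Zbtb46 and Ccl22 were detected on 0 arrays. At an unadjusted p under 0.05 in limma there were 6 of these 11, beside 287 of the 8200 tested genes. The same 6 had every knockout array above every control array, beside 378 of the 8200. They were the MHC class II genes H2-Aa, with a log2 difference of 1.21 ± 0.28, H2-Eb1, with 1.11 ± 0.27 (SE), H2-DMb1, H2-DMa, H2-Ab1 and Cd74. The groups overlapped for the remaining tested genes, Ccl17, Cst3, Bst2, Siglech and Ciita, with differences of 0.43, 0.32, 0.31, 0.10 and -0.06. The centred mean of this list was 0.06, 0.63 and 0.28 in the knockout, against -0.23, -0.55 and -0.19 in the controls. The NK and innate-like T cell markers were higher for 5 of 5 tested genes of 15 with a probe, with sums of 1786 to 2852 in the knockout and 1788 to 1986 in the controls, and Ncr1, Klrb1c, Tbx21 and Zbtb16 were among 9 genes detected on 0 arrays. B cell markers were higher for 3 of 4 tested genes of 12, with sums of 934.4 to 1496 in the knockout and 679.3 to 928.9 in the controls, and Pax5, Cd22, Cr2, Fcer2a, Ms4a1 and Vpreb3 were detected on 0 arrays. Neutrophil markers were lower for 7 of 7 tested genes of 12, with sums of 918.8 to 3144 in the knockout and 1696 to 4471 in the controls, and Cxcr2 and Mmp8 were detected on 0 arrays. The centred mean of the neutrophil list was -0.05, 0.15 and -0.86 in the knockout, against 0.77, 0.003 and -0.0008 in the controls, so the groups overlapped. Thymic epithelial and stromal markers were higher for 2 of 4 tested genes of 18, with 12 genes detected on 0 arrays, and the 1 tested erythroid gene, Hba-a1, differed by -0.14 ± 0.69 (SE). Each summed signal adds the probe of highest mean signal of every gene with a probe, tested or not. A bright gene can therefore set most of it, such as Cd79b for the B cell markers, with a mean log2 signal of 9.85 in the knockout. The part of these cells in the signals of the members was not tested.

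Outside the members, the 5 genes whose profile over the 6 arrays was most like the member mean were Tmem203, Pepd, Ggct, Ctss and Isoc2b, with Pearson coefficients of 0.98 to 0.99. Ctss, the cathepsin S gene of antigen-presenting cells, is also one of the macrophage markers, with a log2 difference of 0.92 ± 0.38 (SE, limma adjusted p = 0.998). Such coefficients are the highest of 8193 genes, of which 192 had a coefficient above 0.9. The lowest were those of the amino acid transporter gene Slc38a2, Mamdc4 and Zcchc8, between -0.99 and -0.98.

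The Ly6, Ms4a and Schlafen members sit in clusters of their families, which the choice of probes did not use. Slfn1 and Slfn2 are separated by no other protein-coding gene in GRCm38.p6, and of the 5 protein-coding genes on each side of Slfn1, Ap2b1 was tested besides Slfn2, and both were higher. Around Ly6c1 the 5 genes on each side held 1 tested gene, Ly6e, and around Ms4a6b 1, Ms4a6d. Around Cd52, whose neighbours belong to no common family, 6 of 10 were tested and 3 were higher. None of these neighbours passed the adjusted threshold in limma.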

How the data were processed

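The authors deposited a table of Illumina probe signals that was not normalized, with a signal intensity and a detection p-value per probe and array; per the submitters' processing notes BeadStudio 3.1.3 was used. A further deposited value table holds processed intensities of the same arrays, and no text states its scale, centring and background handling. Its medians were 6.43 to 6.50, its maximum was 48108.9, and 34.3% to 34.4% of its values per array were below 0. Such values are linear intensities with a background taken off, not log2 values. It served as an alternative, in which the log2 difference of Ly6c1 was again 1.01, and is no independent measurement. From the deposited signals, neqc of limma 3.58.1 (R 4.3.3) took background from the detection p-values, normalized quantiles, added an offset of 16 and gave log2 values. Probes detected at p under 0.01 on at least 3 of 6 arrays were fitted with lmFit and eBayes (14651 probes, 8200 genes), with Benjamini-Hochberg adjustment and a threshold of 0.05. Symbols came from the platform annotation, with 34885 probes of 1 symbol, 18 of several and 10378 of none, and 34807 probes matched RefSeq genes of GRCm38.p6. Probe sequences were not used, so cross-hybridisation within families was not assessed, and log2 levels are not compared between genes.

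The members and gene lists were chosen with earlier results of these data known. Named genes were all members, Trim28, the 3 smallest p-values of the family, maturation, interferon and cell cycle lists, and the 5 most and 3 least like profiles. The markers of other cells, the undetected genes and the neighbours were named beyond this rule, after their values were seen. The same holds for Usp18 and its further probe, as Usp18 was not among the 3 smallest p-values of the interferon list. Replicates are separate mice, and their number limits the precision. Knockout and control replicates share no number in the labels. In the second header row each knockout array neighbours a control array, and the deviations of these pairs from the group means had coefficients of 0.13, 0.16 and 0.52; among the other combinations, knockout replicate 2 with control replicate 4 had 0.32 and the rest were below 0. The fit with them as a block is an alternative. The test was checked on simulated data with independent noise and planted changes larger than any fitted for a member. The check does not show how well differences of the size seen in the members are found.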

Additional observations from a re-analysis of the deposited data

How the results depend on the processing

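The labels share no replicate number between the groups, so the pairing was taken from the neighbouring header numbers and fitted as a block. Over 18 alternatives no member probe passed the adjusted threshold (limma), with a lowest adjusted p of 0.653 for Ly6c1 under a block of the 2 header number ranges, and 8 of the 10 tested member probes stayed higher in the knockout in all 18. The Ly6e probes turned their direction: ILMN_2776278, at -0.04, was 0.048 with median scaling and 0.020 as a gene mean, and -0.12 to 0.014 with 1 array left out, while ILMN_2984828, at 0.08, was -0.046 with array weights and -0.090 to 0.16 with 1 array left out. The 4 calls over all tested probes became 2 without background correction, 1 without the filter on dim probes, 2 with the block of neighbouring header numbers and 0 to 1 with 1 array left out. They became 6 with the deposited value table, and 5 with an offset of 1 or with a robust prior that follows the signal level. The remaining settings gave 3 or 4. The 518 probes at an unadjusted p under 0.05 became 1774 without the filter, 826 with the block of neighbouring numbers, 781 with that of the 2 ranges and 315 to 848 with 1 array left out, and the 2 members at that level became 0 with array weights, without knockout replicate 2 or without control replicate 6, 1 without control replicate 5, and 3 without knockout replicate 3 or without control replicate 4. Without knockout replicate 2, 45.8% of those probes were higher, against 63.5% with all arrays. The mean difference of the members, 0.44, was 0.33 to 0.47 under the other settings and 0.27 to 0.58 with 1 array left out. The cause of these shifts was not tested. Signal over background limits Ms4a4b and Ms4a4c, whose probes were at background on all arrays.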
